A study of Mus musculus with 6 samples.

Results

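Interferon-stimulated genes are the genes that cells switch on when an interferon binds its receptor, and 43 of them, listed by symbol, were followed here in mouse liver. The list joins the Ifit, Oas and Mx families, which respond mainly to type I interferons, the guanylate-binding protein (Gbp) and immunity-related GTPase (Irgm, Igtp, Iigp1, Tgtp1) families with Cxcl9, which respond mainly to interferon gamma, and other antiviral factors. Of the 43 symbols, 42 matched a row among the 23291 genes of the deposited tables, and Ifi27 was not analysed here. The minimum level required for testing (at least 1 FPKM, fragments scaled by transcript length and by library size, in at least 3 libraries) was passed by 38 members, among 10247 genes in all.

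The study compared livers of C57BL/6 mice fed a high fat (Western) diet for 3 months with livers of C57BL/6 mice fed the same diet with dabigatran etexilate, the oral prodrug of a direct thrombin inhibitor, at 10 mg per g of diet. All mice therefore had the high fat diet, and a group on ordinary chow was not analysed here. The labels give neither age nor sex. The labels name 3 samples in each group, numbered 0 to 2, but the values of dabigatran replicates 0 and 1 were the same to the last digit in each of the 23291 genes, and the pair entered as 1 library, called dabigatran replicate 1. The comparison is therefore 3 diet libraries against 2 dabigatran libraries. The design text speaks of 3 mice per group; p-values measure the spread between these libraries.

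Type I interferons (the interferon alpha family and interferon beta) act through the receptor chains IFNAR1 and IFNAR2 and the kinases JAK1 and TYK2, which phosphorylate STAT proteins, STAT2 among them. With IRF9 these form the complex ISGF3, which binds the interferon-stimulated response element (ISRE). Interferon gamma, made mainly by T cells and natural killer cells, acts through IFNGR1, IFNGR2, JAK1 and JAK2 on genes with a gamma-activated site (GAS), and it induces IRF1, which also binds ISRE-like sequences. In liver, hepatocytes, Kupffer cells (the resident macrophages) and endothelial cells all respond to interferons.

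The promoters of the members were searched for short sequences of the kind that these factors bind. RefSeq promoters (GRCm38.p6, 250 bases before to 50 bases after the start) were found for 32 of the 42 members, as 36 promoters. On either strand, the ISRE core GAAANNGAA occurred in 23 of the 36 promoters (63.9%), against 2812 of all 32851 promoters (8.56%). The GAS sequence TTCNNNGAA occurred in 10 of the 36 (27.8%), against 8.30% of all promoters. By gene, the ISRE core was found in 5 of 8 members of the type I families, 8 of 8 of the gamma families and 10 of 16 of the other members, and the GAS sequence in 2 of 8, 4 of 8 and 4 of 16. A match describes the letters only and is not evidence of binding.

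Stretches of 70 bases from 10 of these promoters are shown because they hold such matches in genes described below, with every match to either sequence in capitals (on the opposite strand the ISRE core reads TTCNNTTTC) and the strand of the gene read 5′ to 3′. The first 3, of Ifit1 (chr19:34640762-34640831, plus strand), Ifit3 (chr19:34583370-34583439, plus strand) and Isg15 (chr4:156200852-156200921, minus strand), hold 3 ISRE cores each and no GAS sequence.
Ifit1: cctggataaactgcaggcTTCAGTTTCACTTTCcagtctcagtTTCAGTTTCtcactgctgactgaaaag
Ifit3: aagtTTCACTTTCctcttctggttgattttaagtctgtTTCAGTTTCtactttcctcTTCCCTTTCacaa
Isg15: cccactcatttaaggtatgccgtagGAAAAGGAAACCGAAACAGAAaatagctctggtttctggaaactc

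Among the guanylate-binding proteins, Gbp2 (chr3:142620574-142620643, plus strand) held 1 ISRE core, Gbp3 (chr3:142559972-142560041, plus strand) 2, and Gbp7 (chr3:142530226-142530295, plus strand) 2 GAS sequences and 1 ISRE core.
Gbp2: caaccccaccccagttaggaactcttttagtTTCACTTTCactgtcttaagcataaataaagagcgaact
Gbp3: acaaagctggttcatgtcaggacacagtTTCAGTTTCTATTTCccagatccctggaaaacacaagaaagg
Gbp7: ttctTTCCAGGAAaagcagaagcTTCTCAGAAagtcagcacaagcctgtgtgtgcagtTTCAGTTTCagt

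The immunity-related GTPases Igtp (chr11:58199486-58199555, plus strand), Irgm2 (chr11:58214877-58214946, plus strand) and Tgtp1 (chr11:48992290-48992359, minus strand) shared a layout in which a GAS sequence began 11 bases before an ISRE core. That spacing, which was noticed after the sequences were seen, occurred in 3 of the 36 member promoters (8.33%) and in 9 of all 32851 (0.0274%). Igtp and Irgm2 lie side by side and share sequence, so their promoters are not independent examples. The Tgtp1 stretch matches that of Irgm2 in both motifs and in the bases just before them, so it may not be independent either. The stretch of Irf1 (chr11:53769893-53769962, plus strand) held a GAS sequence and no ISRE core.
Igtp: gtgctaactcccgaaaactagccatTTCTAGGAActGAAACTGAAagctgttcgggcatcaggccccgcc
Irgm2: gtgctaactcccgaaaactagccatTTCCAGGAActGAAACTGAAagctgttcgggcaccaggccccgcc
Tgtp1: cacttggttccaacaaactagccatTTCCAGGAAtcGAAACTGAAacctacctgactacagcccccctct
Irf1: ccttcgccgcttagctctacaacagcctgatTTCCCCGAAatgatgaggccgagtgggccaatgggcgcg

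The libraries were alike in size of signal. Between 10006 and 10399 genes reached 1 FPKM, and the value of a single fragment, read from the spacing of low values, put the depth of the other libraries at 0.761 to 0.967 of that of diet replicate 0. Dabigatran replicate 1 stood at 0.857 and replicate 2 at 0.772. Whole fragment numbers could be inferred for 33 of the 42 members, as the smallest whole numbers that fit the ratios between libraries. A factor common to all libraries would be missed, so the fragment numbers given below are estimates. Values of exactly 0 need care in these tables, since Rpl30, a ribosomal protein gene that every cell uses, was listed at 0 in all 3 diet libraries.

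Most interferon-stimulated genes had lower values with dabigatran, and none passed the adjusted threshold. Differences are given as log2(FPKM + 0.5) in dabigatran minus diet, with the standard error (SE), from limma with p-values adjusted by Benjamini-Hochberg over all 10247 genes. Of the 38 tested members 36 had a difference below 0, where 48.1% of all tested genes did. The median difference was -0.81, against 0.02 over all tested genes. At an adjusted p of 0.05, 0 members were called by limma, where 0.303% of all tested genes were called lower and 0.127% higher. At an unadjusted p of 0.05, 19 members were lower, where 9.13% of all tested genes were, and 1 was higher, where 6.87% were. The smallest adjusted p of a member was 0.0568, for Gbp6. Groups did not overlap, with both dabigatran libraries below all 3 diet libraries, for 19 members (17.2% of all tested genes), and both lay above for 1, Trim25 (17.2% of all tested genes). Oas2 passed the minimum through its diet libraries alone, so it had to differ; without it, 35 of 37 members were below 0, 18 were lower at an unadjusted p of 0.05, 18 did not overlap and the median was -0.80. In these bulk samples, fewer cells of a type and less RNA per cell cannot be told apart.

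The count of calls moved with single libraries. Without diet replicate 1, 4 members passed (Bst2, Cxcl9, Gbp2 and Gbp6), all lower with dabigatran. In that fit the lower calls over all 10247 tested genes also rose, from 31 to 199. No member passed without diet replicate 0 or without diet replicate 2. Leaving out a dabigatran library leaves 1 library in that group, so calls from those fits are not given. Dabigatran replicate 2 was the lower of the 2 dabigatran libraries for 30 of the 38 members (47.0% of all tested genes). Replicate 1 lay below the lowest diet library for 20 members (28.9% of all tested genes) and replicate 2 for 33 (31.5%). Relative to the diet mean, the members' median was -0.40 in replicate 1 and -0.98 in replicate 2, so that without replicate 2 the median difference was -0.40.

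**Figure D1:**
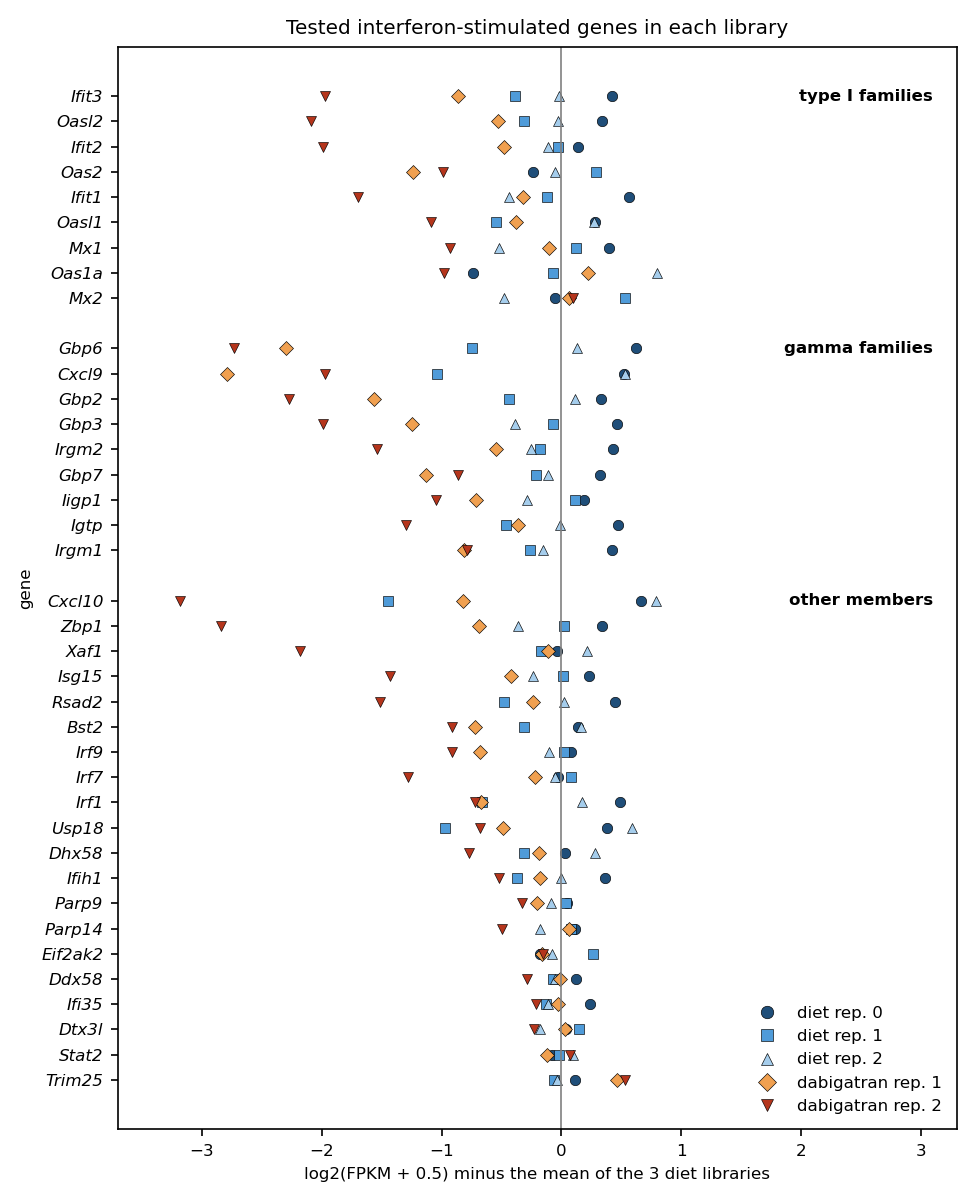
Log2(FPKM + 0.5) of each of the 38 tested members in each of the 5 libraries, minus the mean of the 3 diet libraries (horizontal axis), with 1 row per gene, grouped by family, and 1 symbol per library. For 8 of the 9 gamma-family members both dabigatran symbols lie left of all diet symbols, against 4 of the 9 in the type I families. Without Oas2, which passed the minimum through its diet libraries alone, the type I count is 3 of 8. Over all tested genes 17.2% had both dabigatran libraries below all diet libraries.

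The gamma-responsive families had low values in both dabigatran libraries. All 9 of their tested members were below 0, with differences from -2.52 to -0.80 and a median of -1.05. All 9 had an unadjusted p below 0.05, where 9.13% of all tested genes were lower at that p. For 8 of them the groups did not overlap, where 17.2% of all tested genes were lower without overlap. Gbp6, a guanylate-binding GTPase that acts against intracellular microbes, stood at 10.9, 3.91 and 7.65 FPKM in diet replicates 0, 1 and 2 and at 1.01 and 0.621 in dabigatran replicates 1 and 2. Both dabigatran libraries lay far below every diet library. These values rest on 114, 31 and 77 fragments against 9 and 5, and the difference was -2.52 ± 0.41 (adjusted p = 0.0568, limma). Gbp6 (chr5:105270702-105293698 on GRCm38, minus strand) shares 70.7% of its 50-base windows with other genes, most of all Gm43302, so its reads may be split between copies.

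Gbp2 (chr3:142620602-142638008, plus strand), another guanylate-binding protein, shares only 2.0% of its windows. It was at 6.67, 3.69 and 5.63 FPKM with the diet and at 1.43 and 0.682 with dabigatran. The dabigatran values come from 7 and 3 fragments, against 38, 16 and 31, and the difference was -1.91 ± 0.34 (adjusted p = 0.0674, limma). Gbp3, beside it on chromosome 3, was at 7.95, 5.33 and 4.20 FPKM with the diet and 2.08 and 1.05 with dabigatran, a difference of -1.62 ± 0.35 (adjusted p = 0.0853, limma). In both genes each dabigatran library was below the lowest diet library and replicate 2 was the lower. Gbp7 was at 6.29, 4.18 and 4.52 FPKM against 1.99 and 2.49, a difference of -0.99 ± 0.27 (adjusted p = 0.145, limma), and here replicate 1 was the lower. Gbp7 shares 12.7% of its windows with other genes, most of all Gm43802.

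Cxcl9, the chemokine that draws CXCR3-bearing T cells and is a standard readout of interferon gamma, was at 12.9, 4.03 and 13.0 FPKM with the diet and 0.853 and 1.89 with dabigatran. Diet replicate 1 was far below the other diet libraries and still above both dabigatran libraries. The fragments numbered 88, 21 and 86 against 5 and 10, and the difference was -2.38 ± 0.50 (adjusted p = 0.0833, limma).

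The immunity-related GTPases, which attack the vacuoles of intracellular parasites and bacteria, had differences below 0 in all 4 tested members, Iigp1, Irgm1, Irgm2 and Igtp. Iigp1 was at 150, 142 and 108 FPKM with the diet and 80.5 and 63.7 with dabigatran, a difference of -0.88 ± 0.21 (adjusted p = 0.106, limma). Irgm1 was at 42.2, 26.2 and 28.3 FPKM against 17.8 and 18.0, a difference of -0.80 ± 0.23 (adjusted p = 0.166, limma). The 2 dabigatran libraries were nearly equal for Irgm1, while the diet libraries spread.

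Irgm2 was at 29.3, 19.1 and 18.1 FPKM with the diet and 14.6 and 7.10 with dabigatran, a difference of -1.05 ± 0.33 (adjusted p = 0.193, limma). Igtp was at 23.3, 12.0 and 16.6 FPKM against 12.9 and 6.47, a difference of -0.83 ± 0.35 (adjusted p = 0.301, limma), and it was the only tested gamma-family member whose groups overlapped, through diet replicate 1. Igtp and Irgm2 overlap on the same strand and Igtp shares 11.8% of its windows with other genes, most of all Irgm2. The counts of this pair are therefore not independent. Tgtp1 was below the minimum for testing, at 4.09, 0.996 and 0.941 FPKM with the diet (27, 5 and 6 fragments) and 0.177 and 0.393 with dabigatran (1 and 2 fragments). It shares 81.2% of its windows with other genes, most of all Tgtp2.

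**Figure D2:**
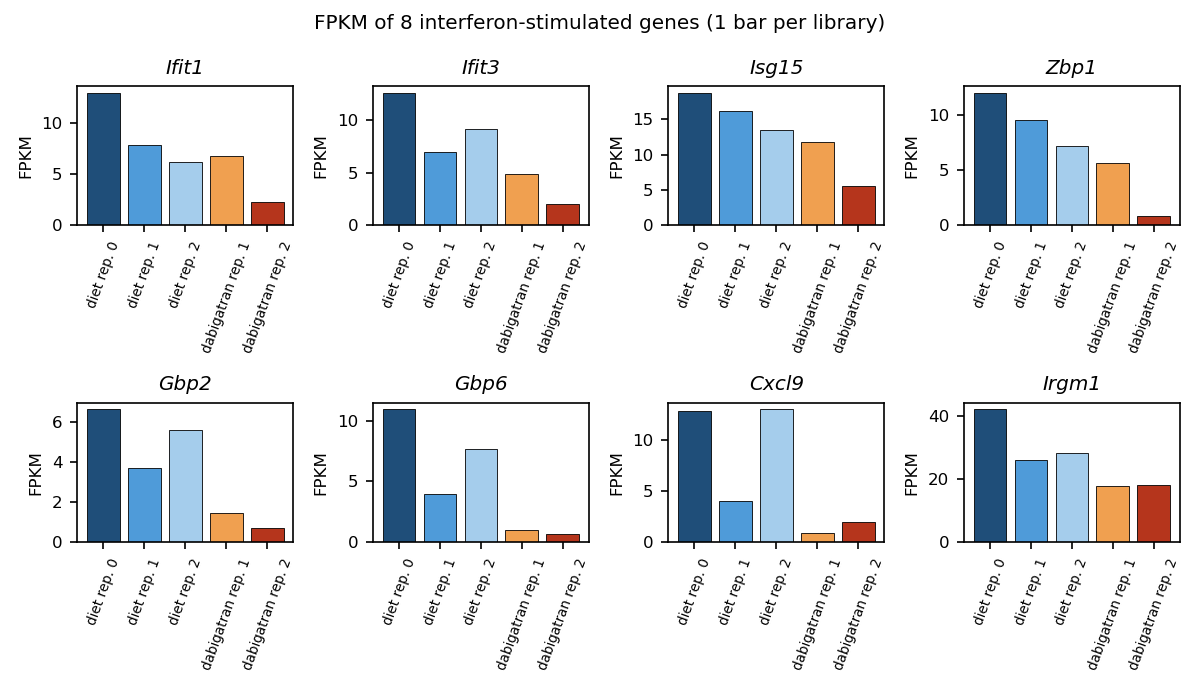
FPKM of 8 members (Ifit1, Ifit3, Isg15, Zbp1, Gbp2, Gbp6, Cxcl9 and Irgm1), with 1 panel per gene, 1 bar per library (3 diet and 2 dabigatran libraries) and linear axes that start at 0. Both dabigatran bars are lower than all 3 diet bars except for Ifit1, where dabigatran replicate 1 (6.82 FPKM) is above diet replicate 2 (6.21 FPKM).

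The type I families were uneven. Of 9 tested members (Oas1g and Oas3 were below the minimum), 8 were below 0, with a median of -1.01 and a range from -1.42 to 0.08. Lower at an unadjusted p below 0.05 were 4 (9.13% of all tested genes), and 4 were lower without overlap (17.2% of all tested genes). Without Oas2, 7 of 8 were below 0, 3 had an unadjusted p below 0.05, 3 did not overlap and the median was -0.87. Relative to the diet mean, their median was -0.38 in dabigatran replicate 1 and -1.09 in replicate 2, so that without replicate 2 the median difference was -0.38. For the gamma families the same values were -1.13 and -1.54. Replicate 2 was below the lowest diet library for 8 of the 9 type I family members and replicate 1 for 4, against 9 and 8 of the 9 in the gamma families. The type I values by replicate include Oas2. Whether the type I and gamma families differ in this respect was not tested.

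**Figure D3:**
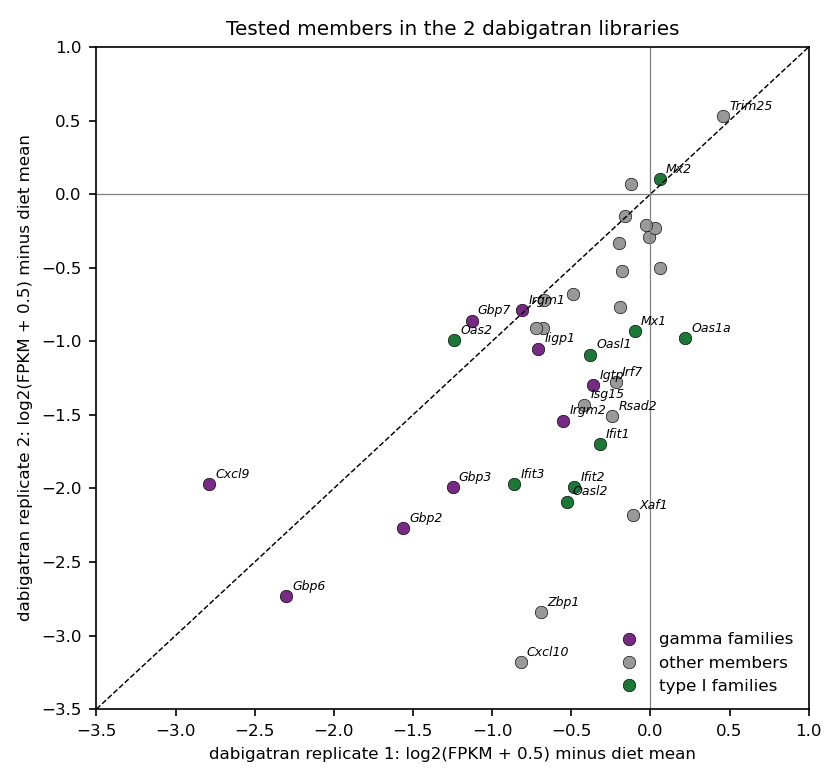
Log2(FPKM + 0.5) of each tested member minus the diet mean in dabigatran replicate 1 (horizontal axis) and replicate 2 (vertical axis), coloured by family, with the line of equality. Of the 38 members, 30 lie below the line, and the gamma families have medians of -1.13 and -1.54 where the type I families have -0.38 and -1.09. The type I medians include Oas2, which passed the minimum through its diet libraries alone.

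The Ifit genes encode proteins that bind viral RNA and block its translation, and they lie together on chromosome 19. Ifit3 was at 12.6, 6.95 and 9.12 FPKM with the diet and 4.89 and 2.00 with dabigatran, the lowest type I family difference (-1.42 ± 0.37, adjusted p = 0.133, limma). Ifit2 was at 3.48, 3.05 and 2.84 FPKM against 2.09 and 0.409, a difference of -1.23 ± 0.44 (adjusted p = 0.236, limma). For Ifit2, replicate 2 rests on 3 fragments. Ifit1 was at 13.0, 7.89 and 6.21 FPKM against 6.82 and 2.31 (-1.01 ± 0.44, adjusted p = 0.313, limma), and dabigatran replicate 1 lay inside the diet range. Ifit3 shares 51.2% of its windows with other genes, most of all Ifit3b, so its counts may be split with that gene.

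The Oas genes encode sensors of double-stranded RNA that activate RNase L, or related proteins. Oas2 passed the minimum through its diet libraries only, with 1.51, 2.41 and 1.79 FPKM against 0.503 and 0.698, on 4 to 17 fragments a library, and its difference is given as values alone. Oasl2 was at 4.98, 3.01 and 3.76 FPKM with the diet and 2.51 and 0.523 with dabigatran (-1.31 ± 0.46, adjusted p = 0.230, limma). Both dabigatran libraries of Oasl2 were below all diet libraries. Oasl1, a relative that restrains Irf7 translation, was at 9.06, 4.87 and 8.95 FPKM against 5.52 and 3.20 (-0.73 ± 0.34, adjusted p = 0.338, limma), with overlap. Oas1a was at 1.17, 2.16 and 4.37 FPKM against 2.74 and 0.912 (-0.38 ± 0.52, adjusted p = 0.760, limma), and its difference changed sign without diet replicate 2 (0.02) and without dabigatran replicate 2 (0.22). Oas1a shares 57.6% of its windows with other genes, most of all Oas1g. Oas1g, with 45.7% shared, ranged from 0 to 1.74 FPKM and Oas3 from 0.566 to 1.03.

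Mx1 and Mx2 encode dynamin-like antiviral GTPases on chromosome 16. Mx1 was at 2.29, 1.81 and 0.984 FPKM with the diet and 1.48 and 0.616 with dabigatran (-0.51 ± 0.42, adjusted p = 0.582, limma). Mx2 was at 2.67, 4.21 and 1.85 FPKM against 2.92 and 3.00, with both dabigatran libraries inside the diet range. Its difference was 0.08 ± 0.34 (adjusted p = 0.935, limma) and -0.16 without diet replicate 2.

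The other 20 tested members had a median of -0.53 and a range from -2.00 to 0.50, with 19 below 0. At an unadjusted p of 0.05, 6 were lower (9.13% of all tested genes) and 1 was higher (6.87%). Among the 4 transcription factors (median -0.72), Irf9, the DNA-binding subunit of ISGF3, had the smallest SE. It was at 17.6, 16.8 and 15.5 FPKM with the diet and 10.2 and 8.61 with dabigatran, a difference of -0.79 ± 0.19 (adjusted p = 0.110, limma). Irf7, the factor that amplifies interferon alpha production, was at 23.6, 25.4 and 23.2 FPKM against 20.6 and 9.59 (-0.75 ± 0.30, adjusted p = 0.274, limma). Dabigatran replicate 2 was far lower than replicate 1 for Irf7. Irf1, whose promoter stretch above carries the GAS sequence, was at 17.8, 7.79 and 14.2 FPKM against 7.71 and 7.41 (-0.70 ± 0.33, adjusted p = 0.345, limma). The dabigatran values of Irf1 were just under that of diet replicate 1. Stat2, the type I-specific subunit of ISGF3, was at 8.38, 8.79 and 9.55 FPKM against 8.13 and 9.39, with overlapping groups (-0.02 ± 0.20, adjusted p = 0.966, limma).

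The 5 nucleic acid sensors had a median of -0.35, and all 5 were below 0. Dabigatran replicate 2 was below the lowest diet library for 4 of them (31.5% of all tested genes) and replicate 1 for 1 (28.9%). Ddx58, which encodes the RNA sensor RIG-I, was at 7.16, 6.24 and 6.29 FPKM with the diet and 6.51 and 5.28 with dabigatran (-0.15 ± 0.22, adjusted p = 0.781, limma). Ifih1, which encodes MDA5, was at 8.91, 5.17 and 6.83 FPKM against 5.98 and 4.61 (-0.35 ± 0.27, adjusted p = 0.574, limma). Groups overlapped for both. Dhx58, which encodes the regulator LGP2, was at 5.19, 3.998 and 6.30 FPKM against 4.38 and 2.78 (-0.48 ± 0.29, adjusted p = 0.457, limma). Eif2ak2, which encodes the kinase PKR, was at 4.98, 6.92 and 5.35 FPKM against 5.03 and 5.08 (-0.16 ± 0.23, adjusted p = 0.782, limma). Zbp1, a sensor of Z-form nucleic acids that can trigger necroptosis, had the lowest difference of the 5. It was at 12.1, 9.58 and 7.21 FPKM with the diet and 5.64 and 0.889 with dabigatran (-1.77 ± 0.55, adjusted p = 0.189, limma).

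The 10 tested effectors and ubiquitin-like system genes had a median of -0.43. Isg15, the ubiquitin-like modifier that is conjugated to proteins after interferon exposure, was at 18.8, 16.1 and 13.4 FPKM with the diet and 11.8 and 5.61 with dabigatran (-0.93 ± 0.31, adjusted p = 0.212, limma). Usp18, the protease that removes ISG15, was at 10.1, 3.65 and 11.8 FPKM against 5.30 and 4.58 (-0.58 ± 0.44, adjusted p = 0.555, limma). The groups overlapped for Usp18 through diet replicate 1 and did not for Isg15. Bst2, the tetherin that holds budding virus at the cell surface, was at 145, 106 and 147 FPKM against 79.4 and 69.8 (-0.82 ± 0.20, adjusted p = 0.115, limma). Rsad2, which encodes viperin, was at 10.9, 5.50 and 7.98 FPKM against 6.56 and 2.43 (-0.88 ± 0.41, adjusted p = 0.346, limma). Bst2 groups were separate and those of Rsad2 were not. Xaf1, a pro-apoptotic factor, was at 2.64, 2.39 and 3.24 FPKM against 2.50 and 0.214, the last from 1 fragment (-1.14 ± 0.55, adjusted p = 0.359, limma).

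Parp9 and Dtx3l, which encode partners in one ADP-ribosylation and ubiquitin ligase complex, differed by -0.27 and -0.10, Parp14 by -0.22 and Ifi35 by -0.12. Of these 4, Parp9 had both dabigatran libraries (13.7 and 12.5 FPKM) below the diet libraries (14.8 to 16.5 FPKM). Without dabigatran replicate 2 the differences of Parp14 (0.06) and Dtx3l (0.03) were above 0. Parp9 and Dtx3l have overlapping exons on opposite strands, 1 pair among 11 members with such an overlap; use of strand in counting is not given in the sources used here. Ifi44, below the minimum for testing, was at 2.92, 0.768 and 1.51 FPKM against 0.341 and 0.567.

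Trim25, the ubiquitin ligase that activates RIG-I, went the other way. It was at 21.7, 19.2 and 19.5 FPKM with the diet and 27.9 and 29.4 with dabigatran, a difference of 0.50 ± 0.17 (adjusted p = 0.227, limma). Both dabigatran libraries were above all diet libraries, on 199 to 325 fragments. Cxcl10, the second CXCR3 chemokine, was at 6.64, 1.16 and 7.33 FPKM with the diet and 2.07 and 0 with dabigatran, from 15, 2 and 16 fragments against 4 and 0. Diet replicate 1 was low for Cxcl10 as it was for Cxcl9, and the groups overlapped (-2.00 ± 0.83, adjusted p = 0.291, limma).

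The genes that carry the signal were examined as lists of ligands, receptors and kinases, transcription factors, inducers and inhibitors. None of the 8 ligand genes found reached the minimum for testing. Ifnb1, Ifna1, Ifna2, Ifna4, Ifna5 and Ifne were listed at 0 in every library, while Ifng was at 0.409 FPKM in diet replicate 2 and Ifnk at 0.631 in diet replicate 1, each from 1 fragment, and at 0 elsewhere. A difference in any ligand was not detectable at this depth. The 8 tested receptor and kinase genes had 4 values below and 4 above 0, with a median of -0.04, and none had an unadjusted p below 0.05.

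Ifnar1 was at 5.79, 7.54 and 5.69 FPKM with the diet and 7.23 and 6.00 with dabigatran (0.06 ± 0.23, adjusted p = 0.925, limma). Ifnar2 was at 37.1, 54.0 and 39.6 FPKM against 34.4 and 45.3 (-0.12 ± 0.22, adjusted p = 0.830, limma). Their groups overlapped, as did those of Ifngr1, at 5.63, 6.85 and 12.3 FPKM against 11.2 and 7.56 (0.22 ± 0.34, adjusted p = 0.791, limma). The differences of all 3 were near 0 and changed sign when 1 library was left out, with Ifnar1 at -0.06, Ifnar2 at 0.07 and Ifngr1 at -0.05 without dabigatran replicate 1. Ifngr2 was at 11.4, 15.0 and 14.2 FPKM against 11.1 and 11.2 (-0.26 ± 0.20, adjusted p = 0.570, limma), just below the diet range. Jak1, the kinase common to both receptors, was at 24.8, 25.1 and 21.9 FPKM against 30.5 and 30.2 (0.34 ± 0.17, adjusted p = 0.382, limma), above the diet range. Tyk2 differed by -0.45 and Il10rb by -0.38, both with overlapping groups.

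Stat3, which carries interleukin-6 signals to the acute phase genes of hepatocytes, was at 20.9, 15.1 and 15.0 FPKM against 25.5 and 34.9 (0.81 ± 0.23, adjusted p = 0.158, limma). Both dabigatran libraries of Stat3 were above all diet libraries. Irf5 differed by -0.39 and Irf3 by -0.15, the latter 0.27 without dabigatran replicate 1.

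Of 9 tested genes that induce interferon production, 4 were below 0 (3 of 8 without Tlr4) and none had an unadjusted p below 0.05. Tlr4, the endotoxin receptor, was at 1.52, 1.71 and 1.12 FPKM with the diet and 0.632 and 0.702 with dabigatran, and it too passed the minimum through its diet libraries only, so no test is given for it. Tlr3, a sensor of double-stranded RNA, differed by -0.63, while Ticam1, the adaptor of both, differed by 0.62 and the kinase gene Tbk1 by 0.32. Among the inhibitors, Ptpn2, a phosphatase that acts on JAK1, was at 3.78, 4.09 and 4.68 FPKM against 8.24 and 7.32 (0.82 ± 0.22, adjusted p = 0.140, limma). Both dabigatran values of Ptpn2 were above all diet values. Cish differed by -0.72, Ptpn6 by -0.17 and Socs3 by 0.17, and Socs1 was below the minimum, at 0.391, 0 and 0.404 FPKM against 0 and 0.

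**Figure D4:**
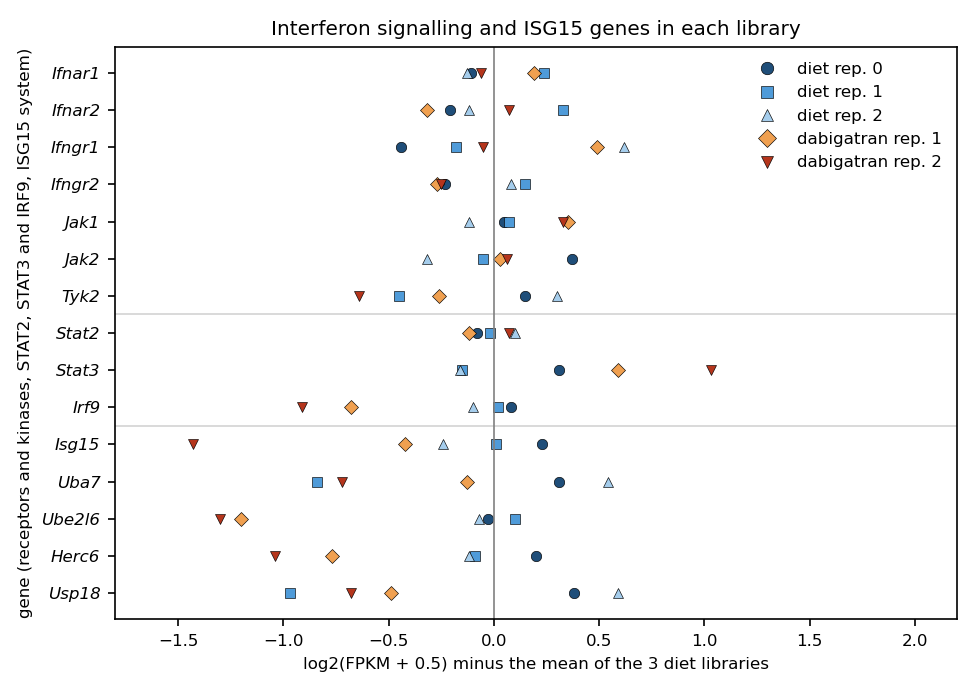
Log2(FPKM + 0.5) in each of the 5 libraries minus the mean of the 3 diet libraries (horizontal axis) for genes of the receptors and kinases, Stat2 and Stat3 with Irf9, and the ISG15 system, with 1 row per gene and 1 symbol per library. Both dabigatran symbols lie left of all diet symbols for Ifngr2 (narrowly), Irf9, Isg15, Ube2l6 and Herc6 and right of them for Jak1 and Stat3.

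A further list of 55 interferon-responsive genes outside the members gave 47 tested genes. It was chosen with earlier results of these data known, so it is not independent support. Of the 47, 40 were below 0 (48.1% of all tested genes), with a median of -0.49. At an unadjusted p of 0.05, 16 were lower (9.13% of all tested genes) and 1 was higher (6.87%). Without Gbp5 and Gbp10, which passed the minimum through their diet libraries only, 38 of 45 were below 0 and 14 were lower at that p, with a median of -0.47. Only Ube2l6, which encodes the E2 enzyme that conjugates ISG15, passed the adjusted threshold. It was at 37.5, 40.9 and 36.4 FPKM with the diet and 16.4 and 15.2 with dabigatran, on 93 to 112 and 35 to 42 fragments. Ube2l6 fell 2.38-fold on the log2(FPKM + 0.5) scale (-1.25 ± 0.17, adjusted p = 0.0404, limma), with both dabigatran libraries well under all diet libraries. Ube2l6 no longer passed without diet replicate 0 (adjusted p = 0.204, limma) and without diet replicate 2 (adjusted p = 0.224, limma). With any 1 library left out its difference stayed between -1.30 and -1.20. No call is given where 1 dabigatran library was left. Uba7, which encodes the E1 enzyme of the same conjugation pathway, differed by -0.43 (adjusted p = 0.681, limma).

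The genes next in order of p on that list were again guanylate-binding proteins and an antiviral factor. Gbp11 was at 19.9, 8.71 and 9.79 FPKM with the diet and 2.76 and 2.25 with dabigatran (-2.06 ± 0.35, adjusted p = 0.0654, limma). Gbp10 was at 10.1, 2.18 and 6.88 FPKM against 0.554 and 0. It passed the minimum through its diet libraries only, so no test is given for it. Gbp10 shares 84.1% of its windows with other genes, most of all Gbp6. Samd9l, an antiviral factor that limits cell growth, was at 6.47, 6.58 and 6.85 FPKM against 3.41 and 1.89 (-1.22 ± 0.27, adjusted p = 0.0902, limma). Gbp11 and Samd9l had both dabigatran libraries below the diet.

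Markers of the liver's cell types were read beside these values. The hepatocyte markers were high in every library, as the label liver requires, with a summed level of 32117 to 34897 FPKM with the diet and 35300 to 47507 with dabigatran. Alb made up most of these sums, at 20513, 18647 and 21821 FPKM against 18532 and 27246. Of the 8 markers, 4 were higher without overlap (17.2% of all tested genes) and 1, Ttr, was lower (17.2%). The 12 Kupffer cell and macrophage markers summed to 302 to 404 FPKM against 305 to 420, with 6 of 12 below 0, and 0 were called. Only Cd163 had groups that did not overlap, where 17.2% of all tested genes were lower and 17.2% higher without overlap. Cd163 was higher with dabigatran, at 3.38, 6.11 and 3.52 FPKM against 11.9 and 13.2 (1.47 ± 0.28, adjusted p = 0.0714, limma). The 12 T and natural killer cell markers summed to 2.37 to 4.35 FPKM with the diet and to 3.03 and 0.388 in dabigatran replicates 1 and 2. None reached the minimum, none exceeded 1.09 FPKM in any library and Cd8a was listed at 0 in all 5. The 4 B cell markers summed to 1.36 to 3.55 FPKM against 3.70 and 0.915. The 5 plasmacytoid dendritic cell markers, for the cell type that makes most interferon alpha, summed to 14.2 to 39.6 FPKM against 9.14 and 0.233. Ly6d made up most of these sums except in dabigatran replicate 2, where Ly6d was listed at 0 and the sum was Siglech alone, while Siglech stayed below 1 FPKM and Cox6a2 was listed at 0 in all libraries. Of the 6 sinusoidal endothelial markers 5 were higher in both dabigatran libraries than in any diet library (17.2% of all tested genes). The other, Clec4g, was lower in both, at 50.4, 53.6 and 53.3 FPKM against 37.2 and 25.4, and the summed level of all 6 was 87.2 to 90.7 FPKM against 89.5 to 89.7. Neutrophil and monocyte markers summed to 3.05 to 24.4 FPKM against 44.8 and 2.29, cholangiocyte markers to 32.8 to 51.9 against 38.9 and 11.1, and stellate cell markers to 88.0 to 137 against 93.3 to 98.5. Spp1 made up most of the cholangiocyte sums, at 49.4, 31.2 and 39.0 FPKM against 35.3 and 9.54, while Krt7, Krt19 and Epcam stayed below 1 FPKM. Dcn made up most of the stellate sums. In dabigatran replicate 1, S100a8 and S100a9 made up most of the neutrophil and monocyte sum, at 12.6 and 28.1 FPKM. On the same list Ly6c2 was at 0.667, 0.876 and 1.38 FPKM against 0 and 0. Ccr2 was at 2.68, 0.306 and 1.69 FPKM against 0.680 and 0.453. The part of these cell types in the lower values of the interferon-stimulated genes was not tested.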

How the data were processed

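Per the labels' protocols, liver RNA was made into libraries with a TruSeq RNA kit. The authors deposited 1 table of FPKM values per sample, per the file headers, with no counts. The submitters' processing notes name CASAVA, TopHat, TopHat2 2.0.4, Cuffdiff, R 2.15.1 and the build mm10 (GRCm38), without the role of each. The total depth is unknown; relative depth came from low values that are whole multiples of 1 fragment (tolerance 4e-05, up to 350 fragments). The files of dabigatran replicates 0 and 1 were identical and entered once.

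Genes that reached 1 FPKM in 3 or more of the 5 libraries were tested with limma 3.58.1 in R 4.3.3 on log2(FPKM + 0.5), with a variance trend, two-sided, Benjamini-Hochberg adjusted, and called at an adjusted p below 0.05. The fit was tested on simulated data. A fold on this scale understates the change of low genes. The members and the gene lists were chosen with earlier results of these data known. All tested members are named, and of each list the genes past the threshold, up to 4 in order of p, and a set of core genes. Positions and 50-base windows shared between genes (over 10% in 7 members) came from GENCODE M21 on GRCm38, promoters from RefSeq on GRCm38.p6. Same-numbered samples did not deviate together. Alternatives were the pseudocount, the filter, the normalization, the variance model, a replicate block and leaving out each library. One gene of the lists is not reported here.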

Additional observations from a re-analysis of the deposited data

How the results depend on the processing

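Over all genes, 31 lower and 13 higher calls became 17 and 6 with a pseudocount of 0.1, 0 and 0 without the filter on low values (15121 genes tested), 0 and 0 without a variance trend, 8 higher with a minimum of 5 FPKM and 16 lower with quantile normalization. Leaving out each diet library in turn gave 0 to 199 lower and 0 to 95 higher calls, and 0 to 4 members called. Calls are not given for the fits that left 1 dabigatran library. With the replicate number as a block, the all-gene calls were 8 lower and 5 higher, no member was called and the medians were -0.75 in the type I families and -0.42 in the other members; only 2 numbers are shared between the groups, and the correlation of same-numbered deviations was -0.04 and -0.03. The type I median was -0.78 without the filter, and that of the other members -0.35 with a minimum of 5 FPKM. Without each library in turn the median lay between -0.98 and -0.40 for all members, -1.14 and -0.38 for the type I families, -1.54 and -0.84 for the gamma families and -0.70 and -0.20 for the others. Without members that share over 10% of their windows, a choice made after seeing the data, the medians were -0.79, -1.01, -1.33 and -0.53. Differences near 0 changed sign for Ifnar2 without diet replicate 1 (0.04); for Oas1a (0.02), Mx2 (-0.16), Stat2 (0.02) and Ifnar1 (-0.00) without diet replicate 2; for Stat2, Irf3, Ifnar1, Ifnar2 and Ifngr1 without dabigatran replicate 1; and for Oas1a, Parp14, Dtx3l and Ptpn6 without dabigatran replicate 2. Over the libraries left out, these genes ranged from -0.98 to 0.22 for Oas1a, -0.16 to 0.34 for Mx2, -0.12 to 0.07 for Stat2, -0.50 to 0.06 for Parp14, -0.23 to 0.03 for Dtx3l, -0.56 to 0.27 for Irf3, -0.45 to 0.11 for Ptpn6, -0.06 to 0.19 for Ifnar1, -0.32 to 0.07 for Ifnar2 and -0.05 to 0.53 for Ifngr1. Ube2l6 also lost its call without the filter (adjusted p = 0.0724, limma), without a variance trend (0.108) and with the block (0.110). The cause of these shifts was not tested. Where 1 dabigatran library was left, it was assumed to vary like the diet libraries. With 3 against 2 libraries and fewer than 10 fragments behind several low values, small differences were not detectable at this depth.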
